A study of Mus musculus with 12 samples.

Results

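Blood taken 7 days after a burn/tenotomy injury was compared with blood taken 6 h after it, gene by gene, in 4 libraries of each time. Burn/tenotomy joins a skin burn with cutting of a tendon, and is used in mice to bring on heterotopic ossification, the growth of bone within soft tissue. Whole blood of wild type animals was passed through the iChip, a microfluidic sorter, and total RNA of the enriched cells was sequenced, so each library holds RNA of what the labels call cMPCs and blood cells, cMPC standing for circulating mesenchymal progenitor cell. The 2 groups, called 6h and Day7, share genotype, injury and enrichment and differ in the labels by time alone. The labels give neither age nor sex, and do not say whether a replicate is 1 animal or a pool, so the spread that p-values are set against may be technical in part. Uninjured animals were not analysed here, and every difference below is between one time after injury and another. The series title asks whether blood carries a signature of heterotopic ossification. The comparison covers each gene whose value reached 1 in 4 or more of the 8 libraries, which are 8683 genes of the 37583 listed. Of these, 34 qualified through Day7 alone and 23 through 6h alone, and such genes had to differ between the groups. At the edge of that rule, 1331 genes reached a value of 1 in exactly 4 libraries and 1383 genes missed it with 3.

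Plasma proteins such as fibrinogen, albumin and the apolipoproteins are made by hepatocytes, and during an acute phase response the liver makes more of some of them. Platelets have no nucleus and carry RNA inherited from the megakaryocyte, the bone marrow cell that sheds them, so blood RNA includes transcripts of platelet receptors and granule proteins. Bone morphogenetic proteins (BMPs) act through SMAD factors to switch on the Id genes, inhibitors of differentiation factors, and this pathway is known for its role in heterotopic ossification. Immediate early genes such as Fos, Jun and Egr1 are switched on within minutes of a stimulus. In bulk RNA of this kind, a lower value from fewer cells of a type cannot be told apart from less RNA in each cell.

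The 8 libraries held 5098395 to 12379041 reads, and replicates were unlike each other. Haemoglobin transcripts took 56.9% ± 20.9 (SD, n = 4) of the reads at 6h and 51.2% ± 23.1 (SD, n = 4) at Day7, a difference smaller than the spread (exact two-sided permutation p = 0.571, where 4 against 4 allows 0.0286 at the least). Genes with at least 1 read numbered 10319 ± 1853 and 10854 ± 2407 (SD, n = 4 each; exact permutation p = 0.629). The fewest genes were found in 2 libraries, 6h replicate 1 with 7631 and Day7 replicate 3 with 7635. A deposited value is a number of reads times the value of 1 read in that library, and 1 read was worth 0.617 in Day7 replicate 3 but 0.0599 in 6h replicate 4. Of the 8683 genes, 2678 were at 0 in 6h replicate 1 and 2379 in Day7 replicate 3, against 163 to 865 in each of the other 6 libraries. Libraries of 1 time were not always closest to each other. Log2 values of 6h replicate 4 had correlations of 0.68, 0.74, 0.57 and 0.68 with Day7 replicates 1 to 4 and of 0.55, 0.52 and 0.60 with 6h replicates 1 to 3. Those of 6h replicate 1 had 0.53, 0.59, 0.50 and 0.57 with Day7 and 0.46, 0.51 and 0.55 with 6h replicates 2 to 4. These correlations are across genes, which are not independent. Reads of Y-linked genes were found in 6h replicates 3 and 4 (76 each) and in no Day7 library, so a difference that goes with them cannot be fully separated from time.

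At Day7, 64 genes were higher and 31 lower than at 6h, out of 8683, at a Benjamini-Hochberg adjusted p under 0.05 in limma, a linear model fitted here to log2(value + 1). That is 1.09% of the genes, 0.737% higher and 0.357% lower. An unadjusted p under 0.05 in limma was found for 1703 of the 8683 genes, 1182 higher and 521 lower. List counts at an unadjusted p below are to be read beside these numbers. The median log2 difference of all genes was 0.29. Of the called genes, 18 of the 64 higher ones passed the filter on low values through Day7 alone and 6 of the 31 lower ones through 6h alone, and without such genes the counts are 46 and 25. Liver transcripts and platelet transcripts made up much of the higher group, and Id1, Id3, immediate early genes and genes of matrix and epithelia were among the lower. The counts hung on single libraries. Without 6h replicate 4 they became 590 higher (6.79%) and 85 lower (0.979%), and all 95 genes called with it stayed called. Without 6h replicate 3 only Ambp was higher and only Krt14 lower (0.0115% each). The higher count was 14 (0.161%) without 6h replicate 2, 23 (0.265%) without Day7 replicate 1 and 9 (0.104%) without Day7 replicate 4, and the lower count was 18 (0.207%) without Day7 replicate 3. A term for Y-linked reads gave 88 higher (1.01%) and 15 lower (0.173%), with 52 of the 95 genes still among them. Median-of-ratios scaling turned the split to 27 higher and 56 lower (32.5% of calls higher, against 67.4%), scaling to reads outside haemoglobin gave 4 and 28, and scaling to all reads gave 0 and 0 in limma with 805 genes at an unadjusted p under 0.05. Under these 3 scalings the median of all genes moved to -0.09, -0.31 and -0.16. On the recovered reads edgeR called 19 higher and 19 lower and DESeq2 136 higher and 506 lower. The stability of each called gene below is given as the number of 28 alternative settings in which it was still called. A gene left out of a setting by its filter counts as not called there.

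**Figure D1:**
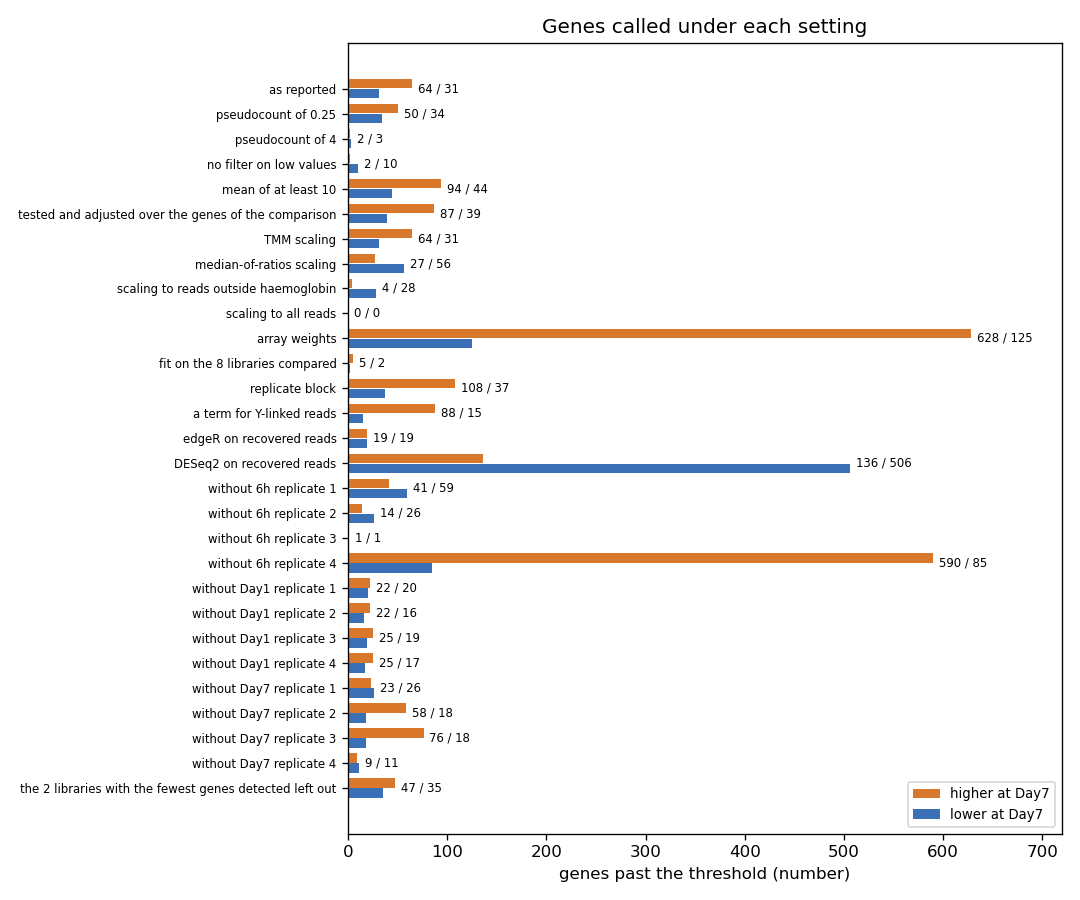
Number of genes past the threshold (horizontal axis) that were higher (orange) or lower (blue) at Day7 than at 6h under each setting (vertical axis), with both counts printed beside the bars. The reported setting gives 64 and 31, leaving out 6h replicate 4 gives 590 and 85, and leaving out 6h replicate 3 gives 1 and 1.

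Liver transcripts were the main group among the genes that rose from 6h to Day7. Of 119 genes on 5 lists of liver products, 65 reached the level needed for the comparison. Of these, 20 were higher and 0 lower, where 0.737% of all genes were higher and 0.357% lower. Their median log2 difference was 4.099 against 0.29 over all genes. Scaled to reads outside haemoglobin this median was 3.15 against -0.31, and scaled to all reads 3.17 against -0.16, so its direction did not depend on the scaling. Of the 65, 8 entered the comparison through Day7 alone and so had to differ, namely Ambp, Apof, Apoh, Fgg, Itih3, Crp, F2 and Cyp2e1. Their p-values below describe genes chosen by being high at Day7. Without them 12 of 57 liver genes were higher and the median was 3.47. Over all genes that did not pass through 1 group alone, 46 of 8626 were higher. The rise was uneven among Day7 libraries, since Day7 replicate 1 held the highest value of the group for 61 of the 65 genes, against 2791 of 8683 over all genes. Summed over the 27 genes of plasma carriers and apolipoproteins, the deposited values were 38494, 225, 898 and 13160 in Day7 replicates 1 to 4 and 369, 47.0, 64.2 and 384 in 6h replicates 1 to 4. Day7 replicate 2 thus lay below 2 of the 6h libraries for this sum.

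The promoters below are shown because their genes rose together in liver or platelet lists and each holds the letters searched for that list before the gene start. For the liver lists these letters were GTTAAT, a core site of the hepatocyte factor HNF1, and for platelet and erythroid lists AGATAA, a site of GATA factors, searched on both strands (GTTAAT or ATTAAC, and AGATAA or TTATCT), with capitals marking the match. Each line is 300 bases from RefSeq in build GRCm38.p6, from 250 bases before to 50 after the gene start, written 5′ to 3′ on the strand of the gene. Alb lies at chr5:90460620-90460919 on the plus strand, Fga at chr3:83025903-83026202 on the plus strand, Gp6 at chr7:4397695-4397994 on the minus strand and F2rl2 at chr13:95696670-95696969 on the plus strand.
Alb: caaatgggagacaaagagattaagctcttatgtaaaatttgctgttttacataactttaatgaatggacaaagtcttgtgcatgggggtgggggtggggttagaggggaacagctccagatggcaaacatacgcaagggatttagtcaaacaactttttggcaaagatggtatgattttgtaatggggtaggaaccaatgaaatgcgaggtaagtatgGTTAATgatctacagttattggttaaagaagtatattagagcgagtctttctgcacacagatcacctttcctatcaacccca
Fga: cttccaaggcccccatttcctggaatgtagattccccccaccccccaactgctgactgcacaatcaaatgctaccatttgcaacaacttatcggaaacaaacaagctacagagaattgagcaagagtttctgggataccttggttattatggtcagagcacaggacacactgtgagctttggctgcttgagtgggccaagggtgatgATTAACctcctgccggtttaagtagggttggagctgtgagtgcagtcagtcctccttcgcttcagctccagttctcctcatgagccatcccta
Gp6: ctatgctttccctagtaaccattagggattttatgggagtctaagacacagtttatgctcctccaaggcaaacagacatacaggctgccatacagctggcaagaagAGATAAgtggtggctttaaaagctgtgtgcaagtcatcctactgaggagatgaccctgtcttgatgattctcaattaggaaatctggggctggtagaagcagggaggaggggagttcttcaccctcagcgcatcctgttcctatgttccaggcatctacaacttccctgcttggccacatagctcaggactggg
F2rl2: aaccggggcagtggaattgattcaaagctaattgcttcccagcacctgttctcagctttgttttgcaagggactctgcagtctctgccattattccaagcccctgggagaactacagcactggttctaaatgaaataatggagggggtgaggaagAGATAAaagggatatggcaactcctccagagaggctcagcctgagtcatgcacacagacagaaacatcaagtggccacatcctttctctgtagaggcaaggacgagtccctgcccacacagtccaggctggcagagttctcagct
The matches begin 32 bases before the start of Alb, 43 before that of Fga, 144 before that of Gp6 and 95 before that of F2rl2. Of the 65 liver genes, 47 had a window in the table, and 11 of these (23.4%) held GTTAAT, against 5.13% of the genes of the comparison and 8.24% of all genes in the table. Of the 20 liver genes that were higher, 17 had a window and 3 held it, Alb, Fga and F2. AGATAA was found for 3 of 10 platelet adhesion receptors, 5 of 17 platelet signalling genes and 1 of 13 platelet granule and cytoskeleton genes. In the erythroid lists it was found for 4 of 12 erythroid and megakaryocyte regulators, 0 of 4 haemoglobin genes and 4 of 16 genes of the red cell membrane and haem synthesis, which had no called member, against 7.91% of the genes of the comparison and 12.7% of the table. Some genes have more than 1 window, and a match describes the letters only.

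Among the plasma carriers and apolipoproteins, 8 of 21 members were higher and 0 lower. Ambp, which is cut into bikunin and alpha-1-microglobulin, was at 0 in each 6h library and at 722, 28.5, 24.1 and 225 in Day7 replicates 1 to 4. The groups did not overlap, the log2 difference was 6.71 (SE 0.92, limma adjusted p = 0.00147) and the call held in 27 of 28 settings, all but scaling to all reads. Apof, apolipoprotein F, which regulates lipid exchange between lipoproteins, was also at 0 in each 6h library and at 738, 2.87, 62.3 and 140 at Day7 (log2 difference 6.15, limma adjusted p = 0.011, 24 of 28 settings). Apoh, beta-2-glycoprotein I, which binds phospholipids, was at 0, 0, 0 and 0.36 at 6h and at 565, 4.02, 66.0 and 139 at Day7 (6.05, limma adjusted p = 0.00831, 24 of 28 settings). In all 3 genes Day7 replicate 1 was highest and replicate 2 or 3 lowest. Alb, albumin, was 38.6, 0.757, 0 and 31.8 at 6h and 5281, 16.5, 152 and 1402 at Day7, so Day7 replicate 2 fell within the 6h range, and its rise of 5.76 (limma adjusted p = 0.0398) held in 12 settings. Apoa2, an apolipoprotein of high-density lipoprotein, had the same overlap, with 61.2, 0.757, 0.483 and 43.1 at 6h and 6493, 36.9, 81.4 and 3371 at Day7 (5.80, limma adjusted p = 0.0399, 12 settings). Ttr, transthyretin, a carrier of thyroid hormone, was 14.4, 0, 0 and 6.53 at 6h and 1575, 15.3, 40.1 and 720 at Day7, without overlap (5.66, limma adjusted p = 0.0266, 18 settings). Rbp4, the retinol carrier, and Ahsg, fetuin-A, an inhibitor of mineral deposition, rose by 5.61 and 5.09 (limma adjusted p = 0.0398 and 0.0449, 12 and 9 settings), and both overlapped with 6h replicate 4 at 20.8 and 61.4. The remaining 13 members did not pass, Apoa1, the main protein of high-density lipoprotein, among them (4.93, limma adjusted p = 0.0585).

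Of 17 acute phase members, 6 were higher and 0 lower. Fgg, the gamma chain of fibrinogen, was 0, 0, 0 and 0.539 at 6h and 1896, 9.19, 22.2 and 274 at Day7 (log2 difference 6.56, SE 1.09, limma adjusted p = 0.00831, 24 of 28 settings). The alpha chain Fga, whose promoter is printed above, was 0, 0.757, 1.21 and 0 at 6h and 1615, 0.766, 38.2 and 282 at Day7 (5.74, limma adjusted p = 0.0316, 16 settings). In Day7 replicate 2 Fga was at a value of the 6h range, while the other Day7 libraries lay above it. The beta chain Fgb had 0, 0.379, 3.62 and 34.6 at 6h and 3532, 7.66, 23.4 and 707 at Day7 and missed the threshold (5.29, limma adjusted p = 0.0557). Hpx, hemopexin, which binds free haem, was 0, 1.14, 0 and 25.4 at 6h and 2109, 15.3, 49.96 and 551 at Day7 (6.01, limma adjusted p = 0.0217, 20 settings). Itih3, a heavy chain of inter-alpha-inhibitor, was at 0 in all of 6h and at 304, 6.32, 6.17 and 69.2 at Day7 (5.02, limma adjusted p = 0.0241, 20 settings). Crp, C-reactive protein, was likewise at 0 in all of 6h and at 169, 2.30, 6.17 and 22.9 at Day7 (4.14, limma adjusted p = 0.0458, 10 settings), and Itih4 rose by 4.44 (limma adjusted p = 0.049, 11 settings). Hp, haptoglobin, the carrier of free haemoglobin, was 2.80, 18.9, 6.04 and 84.2 at 6h and 2990, 15.7, 123 and 630 at Day7 and did not pass (4.099, limma adjusted p = 0.0747). Saa2, serum amyloid A2, had 0, 0, 0 and 21.0 against 1036, 7.46, 52.4 and 106 (5.28, limma adjusted p = 0.0675).

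Of 7 coagulation factors of the liver list, 4 were higher and 0 lower. F2, prothrombin, was at 0 in all of 6h and at 842, 5.74, 3.08 and 164 at Day7 (log2 difference 5.47, limma adjusted p = 0.0288, 17 of 28 settings). Kng1, kininogen, the source of bradykinin, was 0, 3.03, 0 and 2.16 at 6h and 1828, 2.87, 74.6 and 479 at Day7 (6.07, limma adjusted p = 0.0231, 20 settings). F10 and F5 encode coagulation factors X and V. F5 was 40.9, 6.44, 4.35 and 447 at 6h and 495, 863, 338 and 913 at Day7 (4.36, limma adjusted p = 0.0412, 9 settings), and F10 was 52.7, 1.14, 0 and 80.4 at 6h and 389, 101, 216 and 343 at Day7 (4.57, limma adjusted p = 0.0399, 9 settings). Factor V is also held in platelets. At Day7 F5 was highest in replicate 4 and lowest in replicate 3. F10 was highest in replicate 1 and lowest in replicate 2, as Alb was, but ran from 101 to 389 where Alb ran from 16.5 to 5281. The source of the F5 and F10 transcripts was not tested.

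Of 12 hepatocyte enzymes and regulators, only Cyp2e1 was called. Cyp2e1, a cytochrome P450 that oxidises ethanol, was 0, 0.379, 0 and 0 at 6h and 1044, 6.32, 25.3 and 119 at Day7 (log2 difference 6.02, limma adjusted p = 0.0161, 22 of 28 settings). It had 1 read at 6h and 15612 at Day7, a pooled ratio of Day7 to 6h of 18449 with an exact 95% interval of 3311 to 728750 that covers counting error only. Day7 replicate 1 held 15180 of these reads and the other Day7 libraries 432, so the ratio rests mostly on that library. Of 8 complement genes 1 was higher, Mbl2, mannose-binding lectin, at 0, 0, 0 and 7.37 against 258, 3.64, 31.5 and 57.9 (4.52, limma adjusted p = 0.0351, 12 settings), and the median of that list was 0.30. Outside the lists, and chosen after their values were seen, Pon1, the paraoxonase of high-density lipoprotein, Azgp1, zinc-alpha-2-glycoprotein, and Slc27a2, a fatty acid transporter, rose by 5.17, 4.62 and 4.75 (limma adjusted p = 0.0266, 0.0399 and 0.0285). Their calls held in 20, 11 and 19 settings. Pon1 was at 0 in all of 6h and at 380, 6.32, 3.08 and 146 at Day7, and Pon1 and Azgp1 also passed through Day7 alone.

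Where a gene had 0 reads at 6h, the pooled ratio is a lower bound set by a floor of 3 reads over the group, and it leaned on Day7 replicate 1. For Itih3 it was at least 1837-fold higher with that library and 245-fold without it, for Pon1 2361-fold and 465-fold, for Crp 1001-fold and 88.7-fold, and for Azgp1 2091-fold and 158-fold. The number of liver genes called higher was 7 without Day7 replicate 1, 4 without Day7 replicate 4, 8 without 6h replicate 2, 1 without 6h replicate 3 and 33 without 6h replicate 4, and it was 12, 25 and 34 without 6h replicate 1, Day7 replicate 3 and Day7 replicate 2, and 11 without any 1 of the Day1 libraries. The higher counts over all 8683 genes moved too. In the same order they were 23, 9, 14, 1, 590, 41, 76 and 58, and 22 to 25 without a Day1 library. The median over the 65 stayed between 2.84 and 4.97 in these fits. Among the defining hepatocyte markers Hnf4a, a transcription factor of the hepatocyte, was at 3.71, 0, 0 and 2.33 at Day7 and at 0.959 in 6h replicate 4 and 0 in the other 6h libraries. The part of hepatocytes in these values was not tested.

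**Figure D2:**
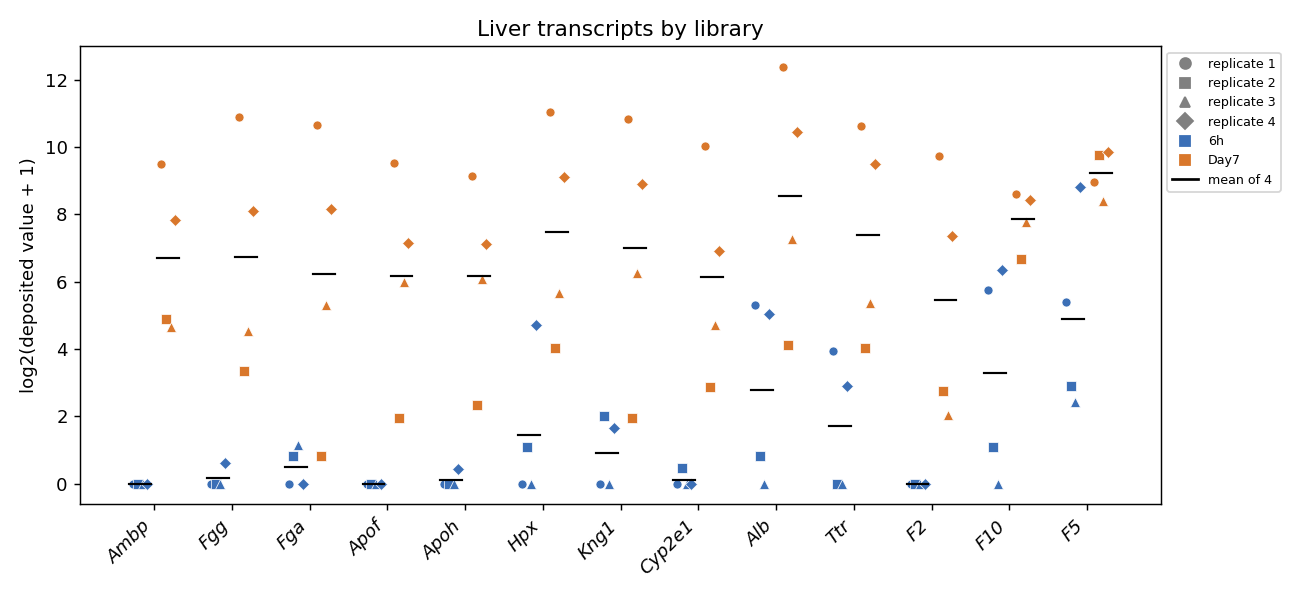
Liver transcripts as log2(deposited value + 1) (vertical axis) in the 4 libraries of 6h (blue) and the 4 of Day7 (orange), with a marker shape for each replicate and a black line at the mean of 4. Day7 replicate 1 (circles) is the highest Day7 library for Ambp to F10, and for F5 6h replicate 4 (blue diamond, 447) lies above Day7 replicate 3 (338).

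Platelet transcripts were the second group that was higher at Day7, and here the 6h libraries differed among themselves. The 3 platelet lists hold 47 genes, and of their 45 members 7 were higher and 0 lower, against 0.737% and 0.357% of all genes. Their median log2 difference was 3.50 against 0.29 over all genes. Scaled to reads outside haemoglobin the median was 2.50 against -0.31, and scaled to all reads 2.66 against -0.16, with 0 members called under either. On the recovered reads, fitted as counts, the median was 1.77 in edgeR, with 0 members called, and 1.58 in DESeq2, with 3 called. Summed over 12 adhesion receptors, the values were 2040, 378, 231 and 20643 in 6h replicates 1 to 4 and 18318, 28385, 15944 and 16183 in Day7 replicates 1 to 4. The library 6h replicate 4 thus had a platelet level within the Day7 range, while the other 6h libraries lay below every Day7 library for 36 of the 45 genes, against 1071 of 8683 over all genes. Without 6h replicate 4, 39 of the 45 genes were higher (6.79% of all genes), and without 6h replicate 2 or 3, or without the 2 libraries with the fewest genes, 0 were. It was 3 or 4 when 6h replicate 1, a Day1 library or Day7 replicate 1, 2 or 3 was left out, and 1 when Day7 replicate 4 was.

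Among the adhesion receptors, 5 of 12 members were higher. Gp9, Gp1bb and Gp1ba are subunits of the complex by which platelets bind von Willebrand factor. Gp9 was 103, 4.54, 2.90 and 1316 at 6h and 1086, 2068, 2802 and 1289 at Day7 (log2 difference 5.35, SE 1.24, limma adjusted p = 0.0398, 9 of 28 settings). Gp1bb was 166, 51.5, 15.0 and 3033 at 6h and 2694, 5123, 3966 and 3057 at Day7 (4.65, limma adjusted p = 0.0456, 6 settings). Gp1ba was 23.7, 2.65, 0 and 143 at 6h and 236, 284, 124 and 390 at Day7 (4.49, limma adjusted p = 0.0399, 8 settings). With the reads of each time pooled, Day7 was 1.84-fold above 6h for Gp9, 1.86-fold for Gp1bb and 2.95-fold for Gp1ba. The pooled 6h reads came mostly from 6h replicate 4, where values were highest and 1 read was worth 0.0599. Mean values of the libraries were 356 at 6h and 1811 at Day7 for Gp9, 816 and 3710 for Gp1bb, and 42.4 and 258 for Gp1ba. In each of these 3 genes 6h replicate 4 lay inside the Day7 range, and 6h replicates 1 to 3 lay below it. Gp6, the platelet collagen receptor whose promoter is shown above, did not overlap, with 1.31, 0, 0.241 and 28.7 at 6h and 96.5, 120, 139 and 35.3 at Day7 (4.86, limma adjusted p = 0.0241, 19 settings). Selp, P-selectin, the granule protein that tethers activated platelets to leukocytes, was 0.373, 0.379, 0.724 and 16.7 at 6h and 31.6, 47.8, 54.3 and 81.8 at Day7 (4.24, limma adjusted p = 0.0266, 18 settings). Itga2b, the integrin chain that binds fibrinogen on platelets, was 621, 49.99, 49.2 and 5322 at 6h and 4315, 6011, 1752 and 3101 at Day7 and did not pass (3.51, limma adjusted p = 0.109).

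Of 17 signalling genes 1 was higher, and of 16 granule and cytoskeleton genes 1 was. F2rl2, the thrombin receptor PAR3, whose promoter is also shown above, was 19.0, 1.51, 0.483 and 116 at 6h and 247, 257, 257 and 179 at Day7 (log2 difference 4.59, limma adjusted p = 0.0398, 8 of 28 settings). Tubb1, the beta-tubulin of the platelet's marginal band, was 12.5, 17.8, 4.35 and 186 at 6h and 660, 462, 311 and 234 at Day7 (4.11, limma adjusted p = 0.0285, 16 settings). The groups did not overlap in either gene, and in both 6h replicate 4 was the highest 6h library and Day7 replicate 4 the lowest at Day7. A pair of abundant chemokines of the platelet granule missed the threshold. Pf4, platelet factor 4, was 759, 126, 40.6 and 7203 at 6h and 6292, 13203, 10514 and 9341 at Day7 (4.53, limma adjusted p = 0.0617), and Ppbp was 464, 179, 76.8 and 8353 at 6h and 7996, 13220, 10539 and 6784 at Day7 (4.27, limma adjusted p = 0.063). Treml1, a receptor of platelet granules, was at 102, 5.68, 3.14 and 988 at 6h and 902, 1179, 1102 and 993 at Day7 (4.67, limma adjusted p = 0.0526).

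Outside these lists, and chosen after their values were seen, Slc6a4, the serotonin transporter by which platelets load serotonin, was 19.4, 9.85, 7.97 and 130 at 6h and 252, 299, 427 and 317 at Day7 (log2 difference 3.82, limma adjusted p = 0.0285, 18 of 28 settings). Tuba4a, an alpha-tubulin, was 40.0, 91.3, 49.7 and 305 at 6h and 527, 815, 2364 and 748 at Day7 (3.42, limma adjusted p = 0.0399, 9 settings), and Rsu1, a partner of integrin adhesion complexes, was 41.8, 25.4, 14.5 and 217 at 6h and 421, 522, 584 and 490 at Day7 (3.50, limma adjusted p = 0.0398, 10 settings). In these genes 6h replicate 4 was the highest of its group, as for 39 of the 45 platelet list genes, against 2995 of 8683 over all genes. It lay below every Day7 library in each of them. Day7 replicate 3 was the highest for all of them, while Day7 replicate 2 was for 30 of the 45. Cd226, an adhesion receptor of lymphocytes and platelets, and Ly6g6f, a platelet surface protein, rose by 4.18 and 4.53 (limma adjusted p = 0.0449 and 0.0398, 7 and 8 settings), and in both 6h replicate 4 (79.5 and 98.4) overlapped with Day7.

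**Figure D3:**
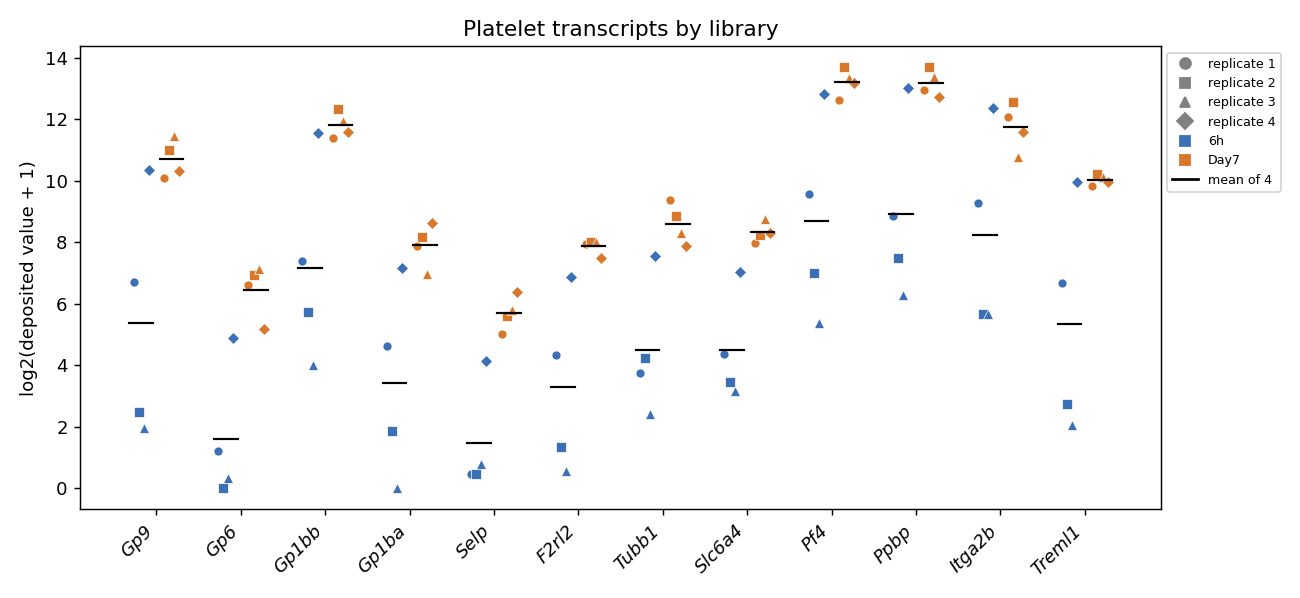
Platelet transcripts as log2(deposited value + 1) (vertical axis) in the libraries of 6h (blue) and Day7 (orange), with a marker shape for each replicate and a black line at the mean of 4. The blue diamond of 6h replicate 4 sits at or near the Day7 points for Gp9, Gp1bb, Pf4, Ppbp, Itga2b and Treml1, and the other 6h libraries sit below them.

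Red cell lists held no called gene. Of 16 erythroid and megakaryocyte regulators, 7 haemoglobin genes and 33 genes of the red cell membrane and haem synthesis, 0 passed the threshold in limma in either direction, with 8, 0 and 7 at an unadjusted p under 0.05, all higher, and edgeR called 0 and DESeq2 0, 0 and 1. Over all 8683 genes, 1182 were higher and 521 lower at an unadjusted p under 0.05 in limma. The median differences of these lists were 2.15, 0.68 and 1.58. The regulators, transcription factors of both red cell precursors and megakaryocytes among them, summed to 471, 417, 247 and 1252 in 6h replicates 1 to 4 and to 1763, 2000, 2234 and 2170 in Day7 replicates 1 to 4. These sums did not overlap, 6h replicate 4 was the highest of its group, the lowest limma adjusted p of a member was 0.0503, and 4 members were called without 6h replicate 4 and 7 with array weights. The summed level of the red cell membrane and haem synthesis list ran from 5715 in Day7 replicate 1 to 479516 in Day7 replicate 3, and from 13579 to 241591 at 6h, so the groups overlapped. The difference between red cell and platelet lists was not tested. Reads of the haemoglobin genes may be split between near-identical copies, and these values are uncertain.

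Id1 and Id3 fell from 6h to Day7. Id1 was 107, 135, 204 and 52.2 at 6h and 7.57, 0.383, 0 and 5.65 at Day7 (log2 difference -5.24, SE 0.82, limma adjusted p = 0.00633), without overlap, and was called in 26 of 28 settings. Id3 was 113, 477, 366 and 177 at 6h and 22.1, 9.57, 0 and 11.6 at Day7 (-5.03, SE 0.90, limma adjusted p = 0.0124, 24 settings), also without overlap. Both are inhibitors of basic helix-loop-helix factors and known targets of BMP signalling. Both were still called in limma with a term for Y-linked reads. Leaving out 6h replicate 3 ended both calls in limma, with log2 differences that kept their sign. Id2, of the same family, was 26.5, 384, 57.2 and 56.6 at 6h and 15.1, 27.2, 1.85 and 13.97 at Day7 and did not pass (-2.71, limma adjusted p = 0.108).

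In the list of Id genes and BMP signalling, 3 of 13 members were lower and 0 higher, against 0.357% and 0.737% of all genes. The median was -1.44 against 0.29 over all genes. The other lower gene was Fst, follistatin, a secreted antagonist of activins and BMPs, at 24.8, 54.5, 7.97 and 3.18 at 6h and at 0, 0, 0 and 0.333 at Day7 (log2 difference -3.82, limma adjusted p = 0.0456, 9 of 28 settings). It entered the comparison through 6h alone, and without it 2 of 12 members were lower and the median was -1.22. Over all genes that did not pass through 1 group alone, 25 of 8626 were lower. Fst had 363 reads at 6h and 1 at Day7, a pooled ratio of 6h to Day7 of 307 with an exact 95% interval of 54.8 to 12166 that covers counting error only. Receptors and SMADs of the pathway on the list did not pass. Bmp1, the protease that cuts procollagens, was 9.71, 36.7, 9.66 and 15.5 at 6h and 6.05, 0.766, 0 and 1.66 at Day7 (-2.77, limma adjusted p = 0.0881), and Bambi, a decoy receptor, had a difference of -2.20 (limma adjusted p = 0.21). Twsg1, a BMP-binding protein outside the list, was 91.1, 33.7, 87.4 and 24.8 at 6h and 5.71, 1.53, 1.23 and 7.32 at Day7 and fell (-3.62, limma adjusted p = 0.0359, 12 settings). Of 15 genes of TGF-beta signalling 1 was lower, Ltbp3, which holds latent TGF-beta in the matrix, at 41.3, 29.9, 43.5 and 51.9 at 6h and 1.72, 5.55, 0 and 0.665 at Day7 (-4.17, limma adjusted p = 0.0161, 22 settings). The ligand Tgfb1 was 30.1, 3.79, 2.17 and 67.6 at 6h and 110, 195, 112 and 99.4 at Day7. Its difference of 3.22 missed the threshold (limma adjusted p = 0.0633). Tgfb1 was highest at 6h in replicate 4, as 39 of the 45 platelet genes were, against 2995 of 8683 over all genes. The count of 3 for the list of Id genes and BMP signalling was 0 without 6h replicate 3 and 2 or 3 without any other single library. Over all 8683 genes the lower count was 1 without 6h replicate 3 and 11 to 85 without any other single library.

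Immediate early genes were lower at Day7 in 4 of 20 members and higher in 0, with a median of -2.18 against 0.29 over all genes, and no member had a positive difference. The median was -2.93 on the scale of reads outside haemoglobin and -2.72 on that of all reads. Fos was 59.9, 207, 347 and 305 at 6h and 15.8, 2.87, 0 and 116 at Day7 (log2 difference -4.36, limma adjusted p = 0.0449, 11 of 28 settings), so Day7 replicate 4 lay within the 6h range. Jun, the partner of Fos in the AP-1 factor, was 105, 323, 335 and 344 at 6h and 48.4, 15.1, 2.47 and 42.6 at Day7, without overlap (-3.75, limma adjusted p = 0.0398, 12 settings). Egr1, a zinc finger factor of stimulated cells that is also needed in tendon, was 5.23, 141, 189 and 124 at 6h and 9.56, 1.34, 0.617 and 2.66 at Day7 (-4.28, limma adjusted p = 0.0357, 15 settings). Ier3, an immediate early regulator of apoptosis, was 1.31, 197, 69.8 and 82.0 at 6h and 1.58, 0, 0 and 1.33 at Day7 (-4.69, limma adjusted p = 0.032, 16 settings). For Egr1 and Ier3, 6h replicate 1 was at the Day7 level and the other 6h libraries were far above it. With a term for Y-linked reads 0 of the 20 passed, where 0.173% of all genes were lower, and the median was -2.01. The count was also 0 without 6h replicate 3, Day1 replicate 2 or 4, or Day7 replicate 2 or 3. It was 1 or 2 without 6h replicate 2, Day1 replicate 1 or 3 or Day7 replicate 4, and 3 to 5 without the others. Lower counts over all 8683 genes in these 3 sets of fits were 1 to 18, 11 to 26 and 26 to 85.

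Heat shock and glucocorticoid-responsive lists had 1 lower member each, where 0.357% of all genes were lower. Of 17 heat shock genes it was Hspb1, a small heat shock protein, at 58.8, 13.3, 107 and 111 at 6h and 3.92, 1.72, 0.617 and 16.6 at Day7 (log2 difference -3.68, limma adjusted p = 0.0399, 12 of 28 settings). Hspa1a, the inducible HSP70, whose reads may be split with its copy Hspa1b, was 5.41, 5.30, 35.7 and 47.9 at 6h and 0.138, 0.574, 0 and 1.33 at Day7 and missed the threshold (-3.52, limma adjusted p = 0.0552). Of 14 glucocorticoid-responsive genes it was Fkbp5, a co-chaperone of the glucocorticoid receptor, at 10.5, 57.2, 22.2 and 26.6 at 6h and 2.96, 0.766, 0 and 3.33 at Day7 (-3.45, limma adjusted p = 0.0449, 12 settings). Sgk1, a kinase of the same list, reached 864 in 6h replicate 2 and at most 119 elsewhere at 6h, and did not pass (-4.18, limma adjusted p = 0.072).

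**Figure D4:**
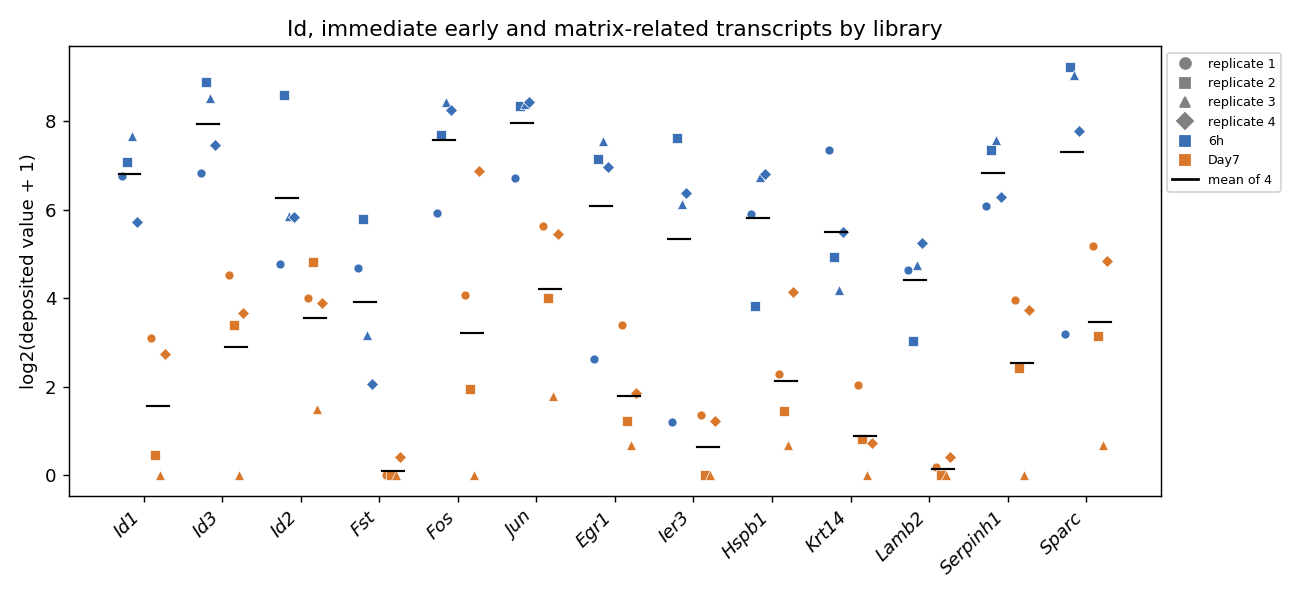
Transcripts of the Id family, Fst, immediate early genes, Hspb1, Krt14 and matrix-related genes as log2(deposited value + 1) (vertical axis) in the libraries of 6h (blue) and Day7 (orange), with a marker shape for each replicate and a black line at the mean of 4. Day7 replicate 3 (orange triangles) is at 0 for Id1, Id3, Fst, Fos, Ier3, Krt14, Lamb2 and Serpinh1, and 6h replicate 1 (blue circles) is low for Egr1, Ier3 and Sparc.

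Matrix transcripts were lower at Day7 in only a few genes that passed, where 0.357% of all genes were lower. Of 21 matrix proteins and proteoglycans 1 was lower, Lamb2, a laminin chain of basement membranes, at 24.1, 7.20, 25.8 and 36.9 at 6h and 0.138, 0, 0 and 0.333 at Day7 (log2 difference -4.27, SE 0.79, limma adjusted p = 0.0139, 24 of 28 settings). Lamb2 entered the comparison through 6h alone and so had to differ. Sparc, osteonectin, a collagen-binding protein, was 8.21, 602, 525 and 220 at 6h and 35.2, 7.85, 0.617 and 27.9 at Day7 and missed the threshold (-3.85, limma adjusted p = 0.0881). Dcn, decorin, was 170, 10.6, 769 and 371 at 6h and 217, 44.0, 4.32 and 457 at Day7, and Ecm1 was 86.6, 115, 463 and 1596 at 6h and 1117, 1389, 502 and 597 at Day7, with overlapping groups and no call (limma adjusted p = 0.646 and 0.406). Of 11 collagens 0 passed in either direction in limma, with 3 lower at an unadjusted p under 0.05, against 0 in edgeR and 3 in DESeq2 past the adjusted threshold. Col1a2, a chain of type I collagen, was 18.3, 0.379, 224 and 112 at 6h and 8.87, 2.11, 0 and 19.95 at Day7 (-2.51, limma adjusted p = 0.27). Col3a1 was 70.01, 0.379, 358 and 152 at 6h and 15.9, 6.89, 4.93 and 122 at Day7 (-1.45, limma adjusted p = 0.562). Col1a1 and Col18a1 differed by -1.29 and 0.13 (limma adjusted p = 0.554 and 0.958). In Col1a2 and Col3a1 6h replicates 3 and 4, which held Y-linked reads, were the 2 highest of the 8. With a term for Y-linked reads the collagen median went from -1.29 to 0.05 and the matrix median from -1.63 to -0.18.

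Serpinh1, the collagen chaperone HSP47, and Htra1, a secreted serine protease, were among the largest falls. Serpinh1 was 66.8, 163, 191 and 77.1 at 6h and 14.6, 4.40, 0 and 12.3 at Day7 (log2 difference -4.30, limma adjusted p = 0.0266, 20 of 28 settings). Htra1 was 16.1, 170, 109 and 44.5 at 6h and 12.2, 1.34, 0 and 1.33 at Day7 (-4.41, limma adjusted p = 0.0285, 18 settings). Neither overlapped between the groups.

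The mesenchymal, cartilage and bone genes that the labelled cMPCs could bring did not pass. Of 13 mesenchymal progenitor and fibroblast members 0 were called in limma in either direction, with 1 higher and 1 lower at an unadjusted p under 0.05, while edgeR called 0 and DESeq2 3 lower, and their median was -0.14. Cd34 was 5.23, 0, 120 and 91.9 at 6h and 24.4, 27.8, 4.93 and 40.9 at Day7, Cd44 was 54.3, 57.2, 13.04 and 325 at 6h and 246, 363, 67.2 and 297 at Day7, and Vim, vimentin, was 102, 108, 170 and 74.7 at 6h and 87.4, 35.0, 1.85 and 87.1 at Day7. The groups overlapped in all 3 (limma adjusted p = 0.90, 0.295 and 0.296). Pdgfra, a receptor that marks mesenchymal progenitors, was at 0 in 6h replicates 1 to 3 and Day7 replicates 1 to 3, with 2.04 in 6h replicate 4 and 0.333 in Day7 replicate 4. Prrx1, a limb mesenchyme factor, was at 0 except for 2.41 in 6h replicate 3 and 1.23 in Day7 replicate 3. Neither gene qualified for the comparison, and both were at or near 0 at 6h and at Day7. Other mesenchymal markers were found. Dcn and Cd34, given above, reached 769 and 120 at 6h and 457 and 40.9 at Day7. Col1a1 was 1.49, 0.379, 93.9 and 35.3 at 6h and 3.03, 2.30, 1.23 and 10.3 at Day7. Thy1 was 81.8, 0, 0.483 and 2.88 at 6h and 2.75, 0.191, 0.617 and 0 at Day7, and did not qualify either.

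Of 3 chondrogenic members 0 were called in limma, edgeR or DESeq2, with 0 at an unadjusted p under 0.05 in limma. Sox6, a cartilage factor that also acts in red cell precursors, was 0, 7.95, 18.8 and 2.46 at 6h and 1.38, 10.9, 120 and 67.5 at Day7 (log2 difference 2.15, limma adjusted p = 0.32), and it was highest at Day7 in the 2 libraries with the highest red cell levels. Prg4, lubricin, and Cytl1, a cytokine of cartilage, differed by -0.42 and -0.41 (limma adjusted p = 0.847 and 0.873). Sox9, the early cartilage factor, did not qualify, with 0, 1.89, 5.07 and 0 at 6h and 0 in each Day7 library. Of 3 osteogenic members 0 were called in limma, edgeR or DESeq2, with 1 lower at an unadjusted p under 0.05 in limma. Spp1, osteopontin, was 0, 2468, 149 and 33.2 at 6h and 1.24, 21.2, 0.617 and 0 at Day7 (-4.32, limma adjusted p = 0.195), so its 6h mean rested on replicate 2. Runx2, the osteoblast factor, was 11.4, 15.5, 1.93 and 0.18 at 6h and 3.10, 0.957, 0 and 3.66 at Day7 (-1.06, limma adjusted p = 0.594), and Atf4 differed by 1.16 (limma adjusted p = 0.453). Of 4 tendon genes the immediate early gene Egr1 was the one that passed, and Fmod, fibromodulin, was 23.2, 0.379, 46.8 and 10.6 at 6h and 5.71, 0.191, 0 and 3.99 at Day7 (-2.21, limma adjusted p = 0.253).

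Markers of other tissues moved beside these genes. Krt14, a keratin of basal epidermis, was 163, 29.5, 17.1 and 44.5 at 6h and 3.10, 0.766, 0 and 0.665 at Day7 and fell (log2 difference -4.60, SE 0.82, limma adjusted p = 0.0124, 25 of 28 settings). Sbsn, suprabasin, an epidermal protein, was 11.6, 60.2, 26.1 and 32.2 at 6h and 1.86, 0, 0 and 0 at Day7 (-4.47, limma adjusted p = 0.0124, 24 settings). Lgals7, a galectin of stratified epithelia, was 42.6, 0, 39.1 and 25.5 at 6h and 1.03, 0, 0 and 0 at Day7 and did not pass (-3.62, limma adjusted p = 0.0771). The epidermal keratins Krt5 and Krt1 were at 0 in all 8 libraries, and the keratinocyte list summed to 36.4 to 334 at 6h and 0 to 29.6 at Day7, with 1 of 5 members lower. Mesothelial genes, of the lining of body cavities, had a median of -2.38 over 15 members, the lowest of the lists with 3 or more members, yet 0 passed in limma (1 higher and 8 lower at an unadjusted p under 0.05), against 0 in edgeR and 1 higher and 11 lower in DESeq2. Msln, mesothelin, was 90.4, 5.68, 333 and 205 at 6h and 15.6, 2.87, 0.617 and 27.3 at Day7 (-3.45, limma adjusted p = 0.0911), and Upk3b was 67.8, 0.379, 582 and 307 at 6h and 40.7, 22.8, 0 and 56.5 at Day7 (-2.06, limma adjusted p = 0.445). Summed over 19 mesothelial genes the 6h level was 1022, 106, 4800 and 2694 in replicates 1 to 4 and the Day7 level 410 to 980, so it was highest in 6h replicates 3 and 4, as collagens were. With a term for Y-linked reads the mesothelial median went from -2.38 to -0.73. The part of these cell types in the fall of matrix and epithelial genes was not tested.

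Other genes with large falls came from no list. Wnt4, a secreted WNT ligand, was 51.0, 40.1, 31.9 and 15.7 at 6h and 0.619, 0.574, 0 and 0 at Day7 (log2 difference -4.70, SE 0.92, limma adjusted p = 0.0217, 21 of 28 settings). It entered the comparison through 6h alone and so had to differ. Maged1, a regulator of apoptosis, was 44.4, 99.2, 44.4 and 49.99 at 6h and 3.78, 4.40, 0 and 2.66 at Day7 (-4.19, limma adjusted p = 0.0124, 25 settings). Lgals3, galectin-3, a lectin of macrophages and epithelia, was 180, 295, 231 and 103 at 6h and 35.4, 16.1, 0 and 15.6 at Day7 (-4.23, limma adjusted p = 0.0323, 17 settings). In all 3 the groups were apart, and Day7 replicate 3 had 0 reads. The imprinted genes Meg3, a long non-coding RNA, and Grb10, an adaptor that dampens insulin signalling, were chosen after their values were seen. Meg3 was 45.4, 16.3, 40.8 and 24.6 at 6h and 1.44, 0.957, 0 and 1.33 at Day7 (-4.06, limma adjusted p = 0.0124, 24 settings), and Grb10 was 18.7, 2.27, 27.8 and 28.9 at 6h and 0.963, 0, 0 and 0.665 at Day7 (-3.51, limma adjusted p = 0.0399, 11 settings). Grb10, like Wnt4, entered through 6h alone and had to differ. Of the 31 genes that were lower, 26 were at 0 in Day7 replicate 3, against 2379 of 8683 over all genes.

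Leukocyte lists gave 1 called gene. Of 13 mature neutrophil genes, Trem1, a receptor that amplifies inflammation, was higher, at 0, 0, 0 and 2.52 at 6h and 13.2, 25.3, 7.40 and 12.6 at Day7 (log2 difference 3.39, limma adjusted p = 0.032, 13 of 28 settings). S100a8, a calcium-binding protein abundant in neutrophils, was 58.4, 0.379, 0 and 41.4 at 6h and 292, 38.3, 91.9 and 196 at Day7 and did not pass (3.97, limma adjusted p = 0.0881), and the neutrophil marker Ly6g was at 0 in all 8 libraries. In limma 0 members passed in the lists of monocytes (16 members), dendritic cells (13), B cells (15), T cells (6) and NK cells (6), with 3, 1, 1, 0 and 0 higher and 1, 0, 0, 1 and 0 lower at an unadjusted p under 0.05. There edgeR called 0, and DESeq2 called 1 T cell gene lower. Over all 8683 genes, 1182 were higher and 521 lower at an unadjusted p under 0.05 in limma. The T cell list summed to 1410 in 6h replicate 1 and to 15.0 to 45.9 in the other 6h libraries, so 1 library carried it, and at Day7 it summed to 4.93 to 83.3. Outside the lists, Gcet2, a gene of germinal centre B cells, was at 0 in all of 6h and at 12.1, 18.6, 6.79 and 15.0 at Day7 (3.74, limma adjusted p = 0.0124, 23 settings), and Klhl6, an adaptor needed in B cells, was 13.8, 0, 0.241 and 36.7 at 6h and 117, 154, 76.5 and 117 at Day7 (4.47, limma adjusted p = 0.0288, 16 settings). Slc14a2, a urea transporter of the kidney, was at 0 in all of 6h and at 2.13, 8.42, 10.5 and 24.3 at Day7 (3.27, limma adjusted p = 0.0285, 15 settings). These 3 genes were chosen after their values were seen, and Gcet2 and Slc14a2 passed the filter through Day7 alone.

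In the lists described next 0 members passed in limma or edgeR, and DESeq2 called 1 proliferation gene higher and 4 circadian genes lower. Their counts at an unadjusted p under 0.05 stand beside 1182 higher and 521 lower of all 8683 genes in limma. Proliferation genes had a median of 1.49 over 21 members, with 6 higher at an unadjusted p under 0.05, and the list summed to 61.2, 222, 4116 and 1038 in Day7 replicates 1 to 4, the order of the red cell level. Circadian clock genes had a median of -1.25 over 15 members, with 4 lower at an unadjusted p under 0.05. Interferon-stimulated genes had a median of 0.81 over 17 members, with 2 higher at an unadjusted p under 0.05, and summed to 44415 in Day7 replicate 3 against 463 in Day7 replicate 1. Respiratory chain genes (25 members, median 0.72) and ribosomal protein genes (26 members, median 0.55) had 10 and 1 higher at an unadjusted p under 0.05 and 0 lower, and were highest in Day7 replicate 3 too. Endothelial genes had a median of 2.56 over 7 members, with 4 higher at an unadjusted p under 0.05, Pecam1 and Vwf among them, which platelets also hold. Among endothelial markers, Cdh5 and Tek were at 0 in all 6h libraries and at most 0.665 at Day7. The marker Kdr was 0.747, 0, 12.6 and 3.84 at 6h and 4.75, 3.64, 0 and 5.65 at Day7. The part of platelets or endothelial cells in this list was not tested. Muscle genes (7 members), glycolysis genes (16), ER stress genes (18), cytokines (7), neutrophil precursor genes (2) and eosinophil, basophil and mast cell genes (3) had 0 calls in limma and edgeR too, with 4, 3, 1, 0, 0 and 0 higher and 0, 2, 3, 1, 0 and 0 lower at an unadjusted p under 0.05, and DESeq2 called 3 glycolysis and 2 ER stress genes lower.

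**Figure D5:**
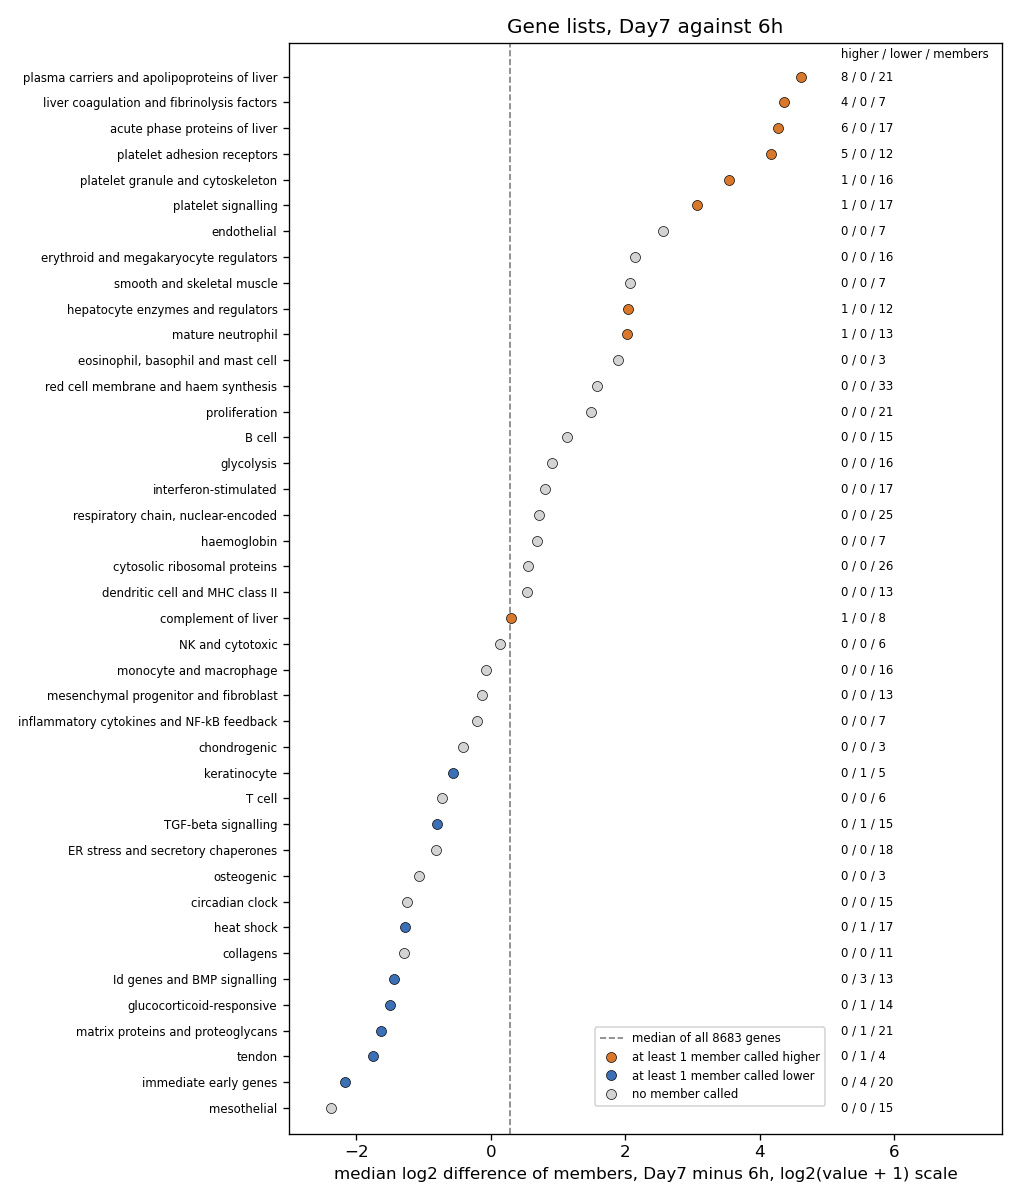
Median log2 difference between Day7 and 6h (horizontal axis, log2(value + 1) scale) of the members of each gene list with at least 3 members (vertical axis), with the numbers of members higher, lower and in all printed at the right and a dashed line at the median of all genes, 0.29. The lists of plasma carriers, coagulation factors and acute phase proteins lie above 4, platelet lists between 3.07 and 4.16, and mesothelial (-2.38) and immediate early genes (-2.18) lie lowest.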

How the data were processed

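The deposited table gives a signal per gene and library, named CPM by the authors. Per the submitters' processing notes, STAR 2.7.10, HTSeq 2.0.1 and build mm9 were used, and no source used here names the annotation, strand setting or scaling step. Every value is a whole multiple of 1 step per library (within 0.001 reads), so 100% of values gave whole reads, and the scale equals edgeR's TMM scaling. Titles of the samples gave groups and replicate numbers. The main test was limma 3.58.1 (R 4.3.3) and a variance trend on log2(value + 1). It took the 12 libraries of 6h, Day1 and Day7, which share 1 estimate of spread, with p-values adjusted over 11211 genes with a value of at least 1 in at least 4 of the 12. Calls at an adjusted p under 0.05 are counted among the 8683 genes of the comparison, all of which were tested. On this log scale changes of low genes are understated. Members and lists were chosen with earlier results of these data known. Genes named are the 10 largest rises and 10 largest falls among called genes without overlap and with a mean of at least 10 in the higher group, 4 members at most of any list with 2 or more calls, and the most abundant mesenchymal, matrix, cartilage, bone, tendon and BMP genes. Any other gene was chosen after its values were seen. Alternatives were other pseudocounts (0.25 and 4), filters and scalings, array weights, a fit of 8 libraries, a replicate block, a term for Y-linked reads, edgeR 4.0.16, DESeq2 1.42.0 and each library left out. Exact intervals are at 95%, and they and the floor of 3 reads cover counting error only. Promoters are RefSeq windows of another build than mm9, matched by symbol for 6236 of 8671 names, and no other positions are given. Of the table's 37583 gene IDs, 32860 matched a current symbol.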

Additional observations from a re-analysis of the deposited data

Results flagged for a closer look

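Among 198 groups of 4 libraries examined, 18 held a library far from the other 3 by Dixon's test. The usual rate of about 1 in 20 is for normally spread values. Where the other 3 libraries were at 0, any read is flagged, and many genes examined were chosen by their values. The 18 therefore cannot be set against that rate. In 6h replicate 4, Selp (16.7), Trem1 (2.52), Mbl2 (7.37), Saa2 (21.0), Fgg (0.539) and Apoh (0.36) stood above the other 6h libraries, of which each was at 0 except for Selp (0.373 to 0.724). In 6h replicate 1, Jun (105) and Egr1 (5.23) stood below the others, which held 323 to 344 and 124 to 189. In 6h replicate 2, Maged1 (99.2) stood above 44.4 to 49.99, Cyp2e1 (0.379, 1 read) above 0, and Lgals7 (0) below 25.5 to 42.6. Prrx1 was found in 6h replicate 3 alone (2.41) and in Day7 replicate 3 alone (1.23). At Day7, Sbsn (1.86), Lgals7 (1.03) and Sgk1 (9.08) were highest in replicate 1, and F2rl2 (179) was lowest and Fst (0.333, 1 read) highest in replicate 4.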

How the results depend on the processing

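Calls among the 8683 genes depended on the setting, and the cause was not tested. Higher and lower counts (64 and 31 as reported) were 2 and 3 with a pseudocount of 4, 2 and 10 with no filter on low values, 27 and 56 with median-of-ratios scaling, 4 and 28 on the scale of reads outside haemoglobin, 0 and 0 on that of all reads, 628 and 125 with array weights, 5 and 2 in a fit of the 8 libraries alone, 88 and 15 under a Y-linked term, 19 and 19 in edgeR and 136 and 506 in DESeq2. Leaving out single libraries gave 1 to 590 higher and 1 to 85 lower. Replicate numbers did not pair the libraries (correlations of same-numbered deviations 0.0447, -0.161, 0.0576 and -0.0235), only 6h replicates 1 and 3 correlated best with their own number, and the replicate block gave 108 higher and 37 lower, with 15 platelet genes. The liver count (20 as reported) was 1, 1, 12, 4, 0, 34, 5, 13, 12 and 38 in the order of the 10 settings above, and 1 to 34 without single libraries. The platelet count of 7 became 4 with a pseudocount of 0.25, 12 with a mean of at least 10 or with adjustment over the 8683 genes, 0 with a pseudocount of 4, no filter, the fit of 8 libraries, edgeR, the 2 libraries with the fewest genes left out, or the scale of all reads or of non-haemoglobin reads, 3 with median-of-ratios scaling or DESeq2, 39 with array weights, and 0 to 39 without single libraries. The immediate early count of 4 became 0 with a pseudocount of 4, no filter, the scale of all reads, the fit of 8 libraries or the Y-linked term, 10 in DESeq2, 2 without the 2 libraries with the fewest genes, and 0 to 5 without single libraries. The Id and BMP count of 3 became 1 with no filter, 0 on the scale of all reads, 6 in DESeq2 and 0 to 3 without single libraries. TMM scaling gave the reported values, and no named gene past the threshold changed sign. The difference in haemoglobin share ran from -16.0 to 5.42 percentage points, and that in genes detected from -362 to 1607, without single libraries. Genes at 0 were most numerous in 6h replicate 1 and Day7 replicate 3, with 2678 and 2379 of the 8683. These libraries held 6081233 and 9096780 reads. With 5098395 and 5373152 reads, 6h replicates 2 and 3 had 865 and 572 genes at 0. What set the number of genes at 0 was not tested.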
